A study of Homo sapiens with 4 samples.

Results

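The potassium channel genes described here are the protein-coding genes whose symbol begins with KCN, and their RNA was compared between HGC-27 cells carrying USP47 shRNA and HGC-27 cells carrying control shRNA. Identifiers were matched to symbols after the version suffix was dropped, and 95 of the 63568 gene identifiers in the files met the rule, while another 27 KCN symbols (antisense transcripts, pseudogenes and other noncoding genes) were left out. The 95 genes were divided by channel class into 30 voltage-gated pore subunits (Kv alpha), 10 electrically silent Kv subunits, 13 Kv auxiliary proteins, 15 inward rectifiers (Kir), 15 two-pore-domain leak channels (K2P) and 12 subunits of calcium- and sodium-activated channels.

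Potassium channels let potassium ions leave the cell down their gradient and so hold the membrane potential negative. Kv channels open on depolarization, Kir channels pass current best near the resting potential, K2P channels carry background leak, and the activated class opens when calcium or sodium rises inside the cell. These channels are known best in nerve, heart and muscle, but epithelial and tumor cells express them too, where they bear on cell volume, calcium entry, proliferation and migration.

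HGC-27 is a long-established human line of gastric carcinoma cells, and USP47 is a deubiquitinase, an enzyme that removes ubiquitin from other proteins. The cells were infected with lentivirus carrying either a scrambled shRNA (control shRNA) or an shRNA against USP47 (USP47 shRNA), so that every library came from infected cells of a single line, and polyA RNA was sequenced from 2 libraries per group. The sources used here do not say whether both USP47 shRNA libraries carried the same shRNA, and although the series calls its samples biological duplicates, separate cultures are not described, so p-values measure the spread between these libraries only. The study's methods speak of triplicates, and 2 libraries per group were analysed here.

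Total counts on genes ranged from 15649899 to 20140273 per library, and 0 counts in a library allowed at most between 0.144 and 0.209 CPM (read counts after scaling for library size with TMM factors, taking 3 counts as the limit and counting error only). USP47 itself was counted 1357 and 1297 times with control shRNA and 749 and 309 times with USP47 shRNA, which left 49.3% and 29.5% of the control mean CPM. Its log2 fold change was -1.34 (SE 0.21, adjusted p = 0.00362, edgeR's quasi-likelihood test), so the targeted gene followed the labels in all 4 libraries. Of 10 gastric epithelial markers 4 had enough counts to test, EPCAM was called lower (12 and 11 counts against 3 and 3), and the list summed to between 4.67 and 6.07 CPM in every library. The keratins KRT18 and KRT19 and the secreted products TFF1, TFF2, MUC5AC and GKN1 each had at most 3 counts in a library, so these markers were at or near 0. Others of the list were counted: CLDN18 66 and 56 times against 61 and 43, CDH1 between 8 and 28 times, and KRT8 between 10 and 19 times. The mesenchymal filament gene VIM was counted between 7201 and 9236 times, and the mesenchymal list summed to between 690 and 881 CPM, with 1 of its 6 genes called lower. CDH2 of that list was low, with 3 and 3 counts against 10 and 3. The RNA is bulk RNA, in which fewer cells of a type and less RNA per cell cannot be told apart.

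The KCN genes were a sparse part of this transcriptome. Their counts summed to 7855 and 9380 with control shRNA and to 8807 and 6712 with USP47 shRNA, between 0.0429% and 0.0482% of all counts. Between 72 and 79 of the 95 genes had at least 1 count in a given library, and 90 had one in some library. The other 5, KCNA1 and KCNA10 of the Shaker family, KCNH8, KCNJ16 and KCNK17, had 0 counts in all 4 libraries.

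Levels of different genes are compared here in TPM, which corrects for gene length. Because 3 genes took between 43.5% and 50.2% of all TPM of a library, TPM is used for the order of KCN genes and for their shares, and CPM for the comparison of groups. In the control libraries 30 KCN genes had a mean of at least 1 TPM. KCNH2, the ERG channel that repolarizes the heart, came first with 20.2 and 20.7 TPM. Next came KCNJ8, the pore of the ATP-sensitive channel Kir6.1, with a mean of 17.4 TPM, and the leak channel KCNK1 (TWIK-1) with a mean of 16.0 TPM. The values of KCNJ8 and KCNK1 overlapped, whereas both values of KCNH2 lay above those of either gene. After a gap, KCNH3 followed at a mean of 7.87 TPM, and then KCNK5 (4.28 TPM), KCNAB2 (4.12 TPM) and KCNK2 (4.0 TPM), whose values overlapped with those of their neighbours in the order.

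**Figure D1:**
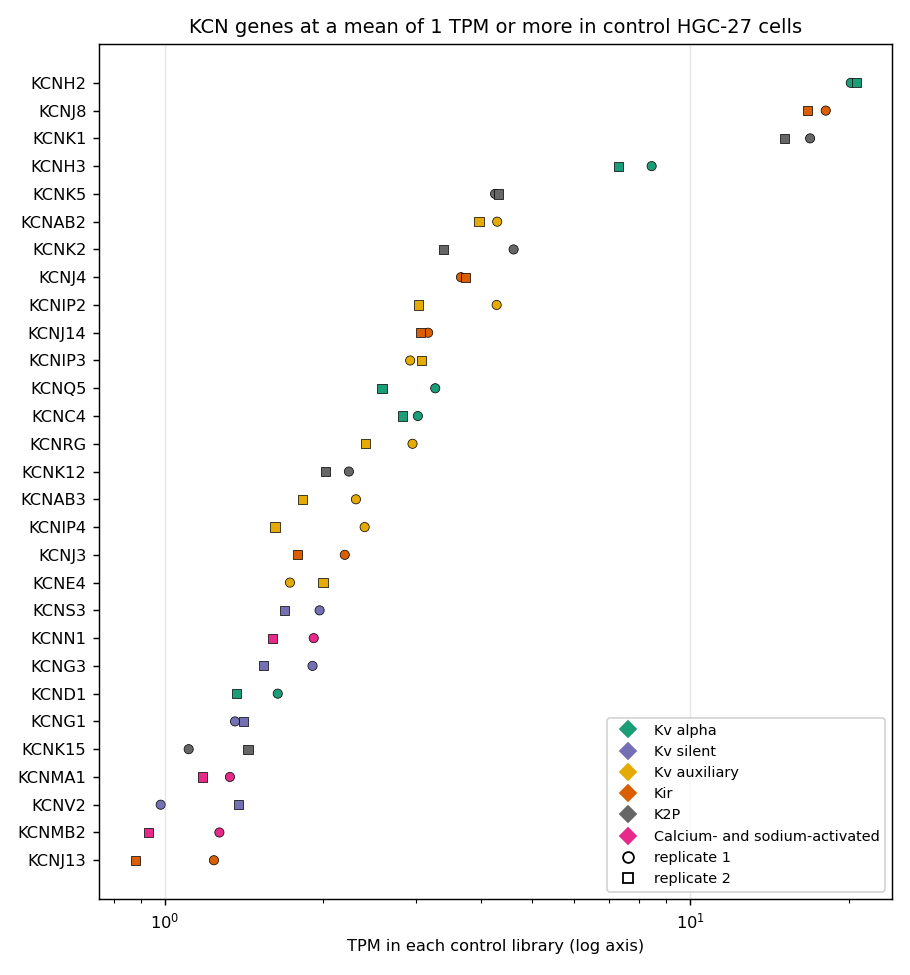
TPM of 29 of the 30 KCN genes with a mean of at least 1 TPM in control HGC-27 cells, on a log axis, with a circle for control replicate 1 and a square for control replicate 2, coloured by channel class. KCNH2, KCNJ8 and KCNK1 sit apart at means of 20.4, 17.4 and 16.0 TPM, and most of the others lie below 5 TPM.

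By class, Kv alpha genes held 31% and 31.6% of the summed KCN TPM with control shRNA, and 28.9% and 31% with USP47 shRNA. K2P genes held 21.7% and 21.5% with control shRNA and 20.8% and 21.1% with USP47 shRNA, and Kv auxiliary genes 16% and 15.4% against 17.6% and 16.1%. Silent subunits held between 5.23% and 5.93% in all 4 libraries. Kir genes held 21.1% and 21.5% with control shRNA and 24% and 24.1% with USP47 shRNA. The share of calcium- and sodium-activated channels was 4.92% and 4.27% with control shRNA and 2.66% and 2.14% with USP47 shRNA. The groups lay apart in the K2P, Kv auxiliary, Kir and activated classes. Shares of a total are not independent of each other and were not tested.

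**Figure D2:**
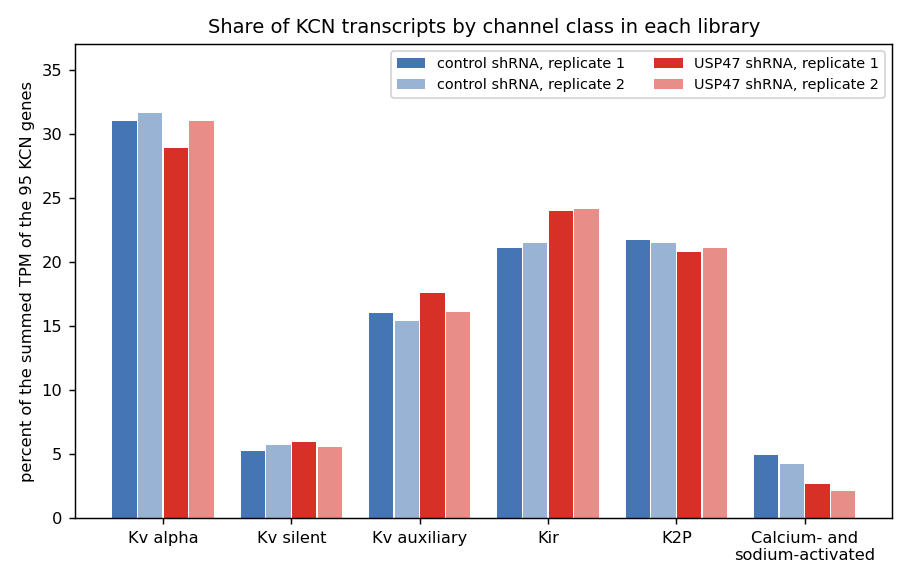
Percent of the summed TPM of the 95 KCN genes held by each channel class, with a bar for each of the 4 libraries (blue, control shRNA, and red, USP47 shRNA, darker for replicate 1). The calcium- and sodium-activated class goes from 4.92% and 4.27% to 2.66% and 2.14%.

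To ask which channel genes differed after USP47 knockdown, the counts of all genes were fitted together, and 48 of the 95 KCN genes had enough counts to be tested. The other 47 had at most 16 counts in any library. Of the 48, 39 passed the filter level of 0.558 CPM in both libraries of both groups, while KCND3, KCNJ10, KCNJ11, KCNK13, KCNN3 and KCNT2 passed it in both libraries of the control group but not of the knockdown group, KCNJ15 and KCNT1 in both libraries of the knockdown group but not of the control group, and KCNF1 in 1 library of each group. KCND3 and KCNT2 also passed it in USP47 shRNA replicate 1, and KCNT1 in control replicate 1. A gene that enters the test through the group where it is high had to differ, so counts over the tested genes are descriptions.

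An adjusted p under 0.05 was reached by 12 of the 48 tested genes (25%), beside 16.1% of all 21932 genes tested. KCNT2, KCNN1, KCNN3, KCNMB2, KCNQ1, KCND1, KCNG1, KCNJ4 and KCNK5 fell, which makes 9 genes (18.8%, beside 9.56% of all genes tested). KCNJ12, KCNE4 and KCNV2 rose, which makes 3 genes (6.25%, beside 6.52%). Among the 39 genes that passed the filter in both groups 10 were called (25.6%), but the share of all genes under that condition is not given here. With at least 10 counts in every library 11 of 39 KCN genes were called (28.2%), beside 17.2% of all genes. Without any filter on low counts 7 of 90 genes were called (7.78%), beside 6.98% of all genes, and with DESeq2's Wald test 4 of the 34 KCN genes that received an adjusted p (11.8%), beside 13.9% of all such genes. Without control replicate 1 the count was 5 of 51 tested (9.8%, beside 5.24% of all genes), and without control replicate 2 it was 7 of 51 (13.7%, beside 6.22%). Without USP47 shRNA replicate 1 it was 16 of 50 (32%, beside 32% of all genes), and without USP47 shRNA replicate 2 it was 18 of 54 (33.3%, beside 27.4%). The KCN share was thus near or below that of all genes without a filter, with the Wald test and without USP47 shRNA replicate 1. The median log2 fold change of the 48 genes was -0.22, against -0.0083 over all genes tested, with 32 values below 0 and 16 above. In all 12 called genes the libraries of the groups did not overlap, but this held for 30 of the 48 tested genes, called or not. With 2 libraries per group such separation is common, and its share over all genes is not given here.

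**Figure D3:**
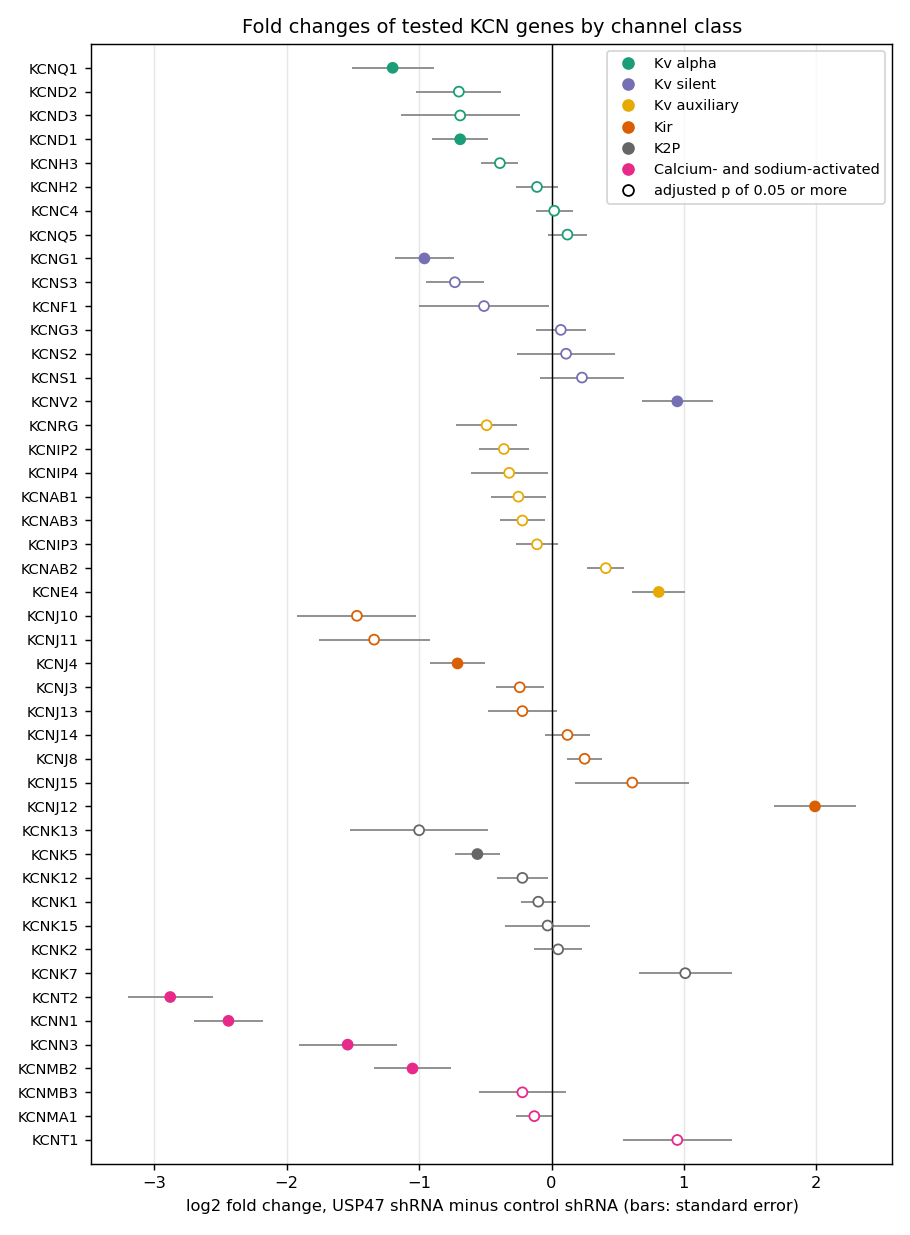
Log2 fold change (USP47 shRNA minus control shRNA, bars are standard errors) of 46 of the 48 tested KCN genes, grouped and coloured by channel class, filled where the adjusted p was under 0.05. The lowest value is KCNT2 at -2.88 and the highest KCNJ12 at 1.99, and 4 of the 7 tested calcium- and sodium-activated channel genes are filled and below 0. Among these, KCNT2 and KCNN3 passed the filter in both libraries of the control group but not of the knockdown group.

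The calcium- and sodium-activated class had 7 tested genes, of which 4 fell and 0 rose, beside 9.56% of all genes tested that fell. The median log2 fold change of the class was -1.05, with a range from -2.88 to 0.95. KCNT2 and KCNN3 passed the filter in both libraries of the control group alone, and KCNT1 in both of the knockdown group alone. The class counts and median are therefore descriptions. KCNT2 (chromosome 1 of GRCh37, 196194909 to 196578355, minus strand), which encodes the sodium-activated channel Slick, was counted 78 and 99 times with control shRNA and 18 and 5 times with USP47 shRNA. Both knockdown values were far below both control values, at 17.9% and 7.22% of the control mean CPM, so that the library with less USP47 also had less KCNT2. Its level went from 4.82 ± 0.316 to 0.607 ± 0.366 CPM (SD, n = 2), a log2 fold change of -2.88 (SE 0.32, adjusted p = 0.000729). No fit that tested KCNT2 lost this call, and its log2 fold change ranged from -3.76 without USP47 shRNA replicate 1 to -2.47 without USP47 shRNA replicate 2. KCNT1, the related Slack channel, was counted 10 and 7 times with control shRNA and 20 and 12 times with USP47 shRNA, and did not pass the test (log2 fold change 0.95, adjusted p = 0.138).

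Around KCNT2 the annotation places the microRNA gene MIR4735 inside the KCNT2 span, with 1 and 1 counts against 0 and 0. The next protein-coding gene toward lower coordinates is CDC73 (193091113 to 193223945), a component of the PAF1 transcription complex. It lies far from KCNT2, which begins at 196194909, so it does not describe the close surroundings of KCNT2. CDC73 had a log2 fold change of 0.08 (adjusted p = 0.723). The neighbour on the other side is not reported here.

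Small-conductance calcium-activated channels (SK) open with calmodulin when calcium rises. KCNN1, which encodes SK1 (chromosome 19, 18062102 to 18110894), was counted 89 and 97 times with control shRNA and 22 and 11 times with USP47 shRNA. The knockdown libraries kept 20.8% and 15.0% of the control mean CPM. The level went from 5.10 ± 0.214 to 0.912 ± 0.206 CPM (SD, n = 2), a log2 fold change of -2.44 (SE 0.26, adjusted p = 0.00061), and KCNN1 was called in every setting tried. With a mean of 1.76 TPM it was the most abundant gene of its class in control cells.

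KCNN3, which encodes SK3 (chromosome 1, 154669931 to 154842757, minus strand), was counted 24 and 25 times with control shRNA and 8 and 8 times with USP47 shRNA. All its counts were low, the groups did not overlap, and KCNN3 reached the filter level in both libraries of the control group alone. Its CPM went from 1.34 ± 0.0995 to 0.471 ± 0.122 (SD, n = 2), a log2 fold change of -1.54 (SE 0.37, adjusted p = 0.0209). DESeq2's Wald test gave KCNN3 no adjusted p, and the filter of 10 counts in every library left it untested. Without control replicate 1 (adjusted p = 0.0934), control replicate 2 (0.0593) or USP47 shRNA replicate 1 (0.0541) KCNN3 was not called. Of the other members of the family, KCNN2 had 2 and 1 counts against 0 and 0, and KCNN4, the intermediate-conductance channel of epithelia and lymphocytes, had 0 and 2 against 0 and 1.

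KCNN3 was also the only 1 of 8 called genes found in a RefSeq promoter table (GRCh38.p14, from 250 bases before to 50 bases after the gene start) whose promoter held the E-box CAGGTG, the word that SNAI1 binds, on either strand, or the AP-1 word TGAGTCA, on either strand. Both words were chosen after the levels had been seen. The table held 71 of the 95 KCN genes, of which 21 (29.6%) had the E-box and 5 (7.04%) the AP-1 word, beside 24.1% and 6.05% of 27305 gene symbols. KCNN3 has a pair of starts in the table, with the E-box in both windows and the AP-1 word in 1, and the stretches around these words are printed in gene direction with the word in capitals. The words begin 230, 27 and 192 bases before the gene start, in the window chr1:154859827-154860126 for the first and second line and chr1:154868021-154868320 for the last, minus strand. A match of letters is a description and no measure of binding.
KCNN3 E-box, first start: cgttcccagcCAGGTGccagggggca
KCNN3 AP-1 word, first start: ctgttattttTGAGTCAgcttgttggg
KCNN3 E-box, other start: aaaatggctaCAGGTGttacctgggc

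The large-conductance channel (BK) pairs a pore subunit, KCNMA1, with beta subunits that set its calcium sensitivity and inactivation. KCNMA1 was counted 292 and 339 times with control shRNA and 332 and 222 times with USP47 shRNA and did not pass the test (log2 fold change -0.13, adjusted p = 0.545). The beta subunit gene KCNMB2 (chromosome 3, 177990720 to 178562217) was counted 53 and 51 times with control shRNA and 35 and 14 times with USP47 shRNA. The knockdown libraries held 58.8% and 34.1% of the control mean CPM, again with the lower value in replicate 2. Its level went from 2.86 ± 0.371 to 1.33 ± 0.5 CPM (SD, n = 2), a log2 fold change of -1.05 (SE 0.29, adjusted p = 0.0372), and the call was lost without control replicate 1 (adjusted p = 0.178), with DESeq2's Wald test (0.149), with library size alone as the scaling (0.0714) and without a filter (0.0513). KCNMB3, another beta subunit, had 40 and 25 counts against 32 and 22 (adjusted p = 0.686).

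KCNMB2-AS1, a noncoding gene on the strand opposite to KCNMB2, fell too, from 74 and 79 counts to 52 and 26 (log2 fold change -0.93, SE 0.23, adjusted p = 0.0245). The annotated exons of KCNMB2 and KCNMB2-AS1 share 0 bases. The strand setting of the counting is not given in the sources used here, so reads from introns or unannotated exons of either gene could be counted for the other.

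Of the 30 Kv alpha genes 10 were tested, 2 fell and 0 rose, with a median log2 fold change of -0.28. KCNQ1, which encodes the Kv7.1 channel of heart and of stomach parietal cells (chromosome 11, 2465884 to 2870335), was counted 32 and 33 times with control shRNA and 16 and 11 times with USP47 shRNA. Both knockdown libraries held nearly the same share of the control mean CPM, 43.1% and 43.0%. Its CPM went from 1.78 ± 0.145 to 0.768 ± 0.00207 (SD, n = 2), a log2 fold change of -1.20 (SE 0.31, adjusted p = 0.026), and the call was lost without control replicate 1 (adjusted p = 0.157) or control replicate 2 (0.0846). DESeq2's Wald test gave KCNQ1 no adjusted p. KCNQ1OT1, the long noncoding RNA of the imprinted KCNQ1 locus, lies on the opposite strand and shares 121 exon bases with KCNQ1. It was counted 15474 and 14512 times against 21196 and 10486 (log2 fold change 0.08, adjusted p = 0.796), which are counts far above those of KCNQ1. KCNQ1-AS1 shares 56 exon bases and had a single count, in USP47 shRNA replicate 1. KCNQ5, another Kv7 gene, had 289 and 301 counts against 393 and 231 and did not pass the test (adjusted p = 0.631).

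KCND1, which encodes the Kv4.1 channel of fast transient current (chromosome X, 48818639 to 48828251), was counted 111 and 122 times with control shRNA and 70 and 67 times with USP47 shRNA. The knockdown libraries held 52.7% and 73.2% of the control mean CPM, with the lower value in replicate 1. The level went from 6.38 ± 0.23 to 4.02 ± 0.921 CPM (SD, n = 2), a log2 fold change of -0.69 (SE 0.21, adjusted p = 0.0481). This call lay near the threshold and was lost with DESeq2's Wald test (adjusted p = 0.186), with DESeq2's size factors (0.0519), without a filter (0.0534), and without control replicate 1 (0.256), control replicate 2 (0.166) or USP47 shRNA replicate 1 (0.123, with a log2 fold change of -0.44). Its relatives KCND2 and KCND3 had log2 fold changes of -0.70 and -0.69 from fewer counts, with adjusted p-values of 0.16 and 0.317.

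The most abundant Kv alpha genes did not pass the test. KCNH2 was at 105 ± 11.0 CPM with control shRNA and 97.8 ± 20.7 CPM with USP47 shRNA (SD, n = 2; log2 fold change -0.11, SE 0.16, adjusted p = 0.687), although without USP47 shRNA replicate 2 it was called lower (-0.34, adjusted p = 0.0212). KCNH3, a neuronal relative of KCNH2, was at 24.5 ± 0.276 and 18.7 ± 1.83 CPM (log2 fold change -0.39, adjusted p = 0.0825, and 0.00345 without USP47 shRNA replicate 2). Of the 30 genes of the class 20 had too few counts to be tested.

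Silent subunits form no channel alone and change the gating of Kv2 channels when they join them. Of the 10 genes 7 were tested, 1 fell and 1 rose, with a median log2 fold change of 0.07. KCNG1 (Kv6.1, chromosome 20, 49620193 to 49639644) was counted 100 and 136 times with control shRNA and 57 and 57 times with USP47 shRNA. Its CPM went from 6.41 ± 0.733 to 3.36 ± 0.87 (SD, n = 2), a log2 fold change of -0.96 (SE 0.22, adjusted p = 0.018), with 42.7% and 61.9% of the control mean in the knockdown libraries. The call was lost without control replicate 2 (adjusted p = 0.108) and narrowly with DESeq2's Wald test (0.054). A noncoding gene on the opposite strand shares 434 exon bases with KCNG1 and had 1 count in all 4 libraries together.

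KCNV2 (Kv8.2, a subunit of photoreceptors, chromosome 9, 2717510 to 2730037) was counted 25 and 46 times with control shRNA and 86 and 47 times with USP47 shRNA. In raw counts the higher control library and the lower knockdown library were close, and in CPM they were 2.34 and 3.27. The mean went from 1.91 ± 0.616 to 3.70 ± 0.609 CPM (SD, n = 2), a log2 fold change of 0.95 (SE 0.27, adjusted p = 0.0376), and the call was lost without control replicate 1 (adjusted p = 0.331), with library size alone as the scaling (0.0908), without a filter (0.0617) and with DESeq2's Wald test (0.128). PUM3, an RNA-binding protein gene on the other strand, overlaps the KCNV2 span, shares 0 exon bases with it, and had a log2 fold change of 0.19 (adjusted p = 0.496) at between 1139 and 2461 counts. KCNS3 (Kv9.3), the most abundant silent subunit in control cells at 1.83 TPM, was counted 72 and 81 times against 46 and 42 and lay just outside the threshold (log2 fold change -0.73, SE 0.22, adjusted p = 0.052). It was called without USP47 shRNA replicate 2 (adjusted p = 0.00346) and with a filter of 10 counts in every library (0.0456).

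Among the 13 Kv auxiliary genes 8 were tested, 1 rose and 0 fell, with a median log2 fold change of -0.24. KCNE4, a single-span subunit known to inhibit KCNQ1 and other Kv channels (chromosome 2, 223916908 to 224063117), was counted 83 and 126 times with control shRNA and 184 and 160 times with USP47 shRNA. The knockdown libraries stood at 156% and 197% of the control mean CPM. Its level went from 5.66 ± 1.08 to 10.0 ± 1.63 CPM (SD, n = 2), a log2 fold change of 0.81 (SE 0.20, adjusted p = 0.0228), and the call was lost without control replicate 1 (adjusted p = 0.238). The other genes of its family, KCNE1, KCNE2, KCNE3 and KCNE5, had at most 10 counts in a library and were not tested. KCNAB2, a cytoplasmic beta subunit and the most abundant auxiliary gene, was at 27.9 ± 0.923 and 37.0 ± 4.41 CPM (SD, n = 2; log2 fold change 0.41, SE 0.14, adjusted p = 0.0716, and 0.000298 without USP47 shRNA replicate 1).

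The Kir class had 9 tested genes of 15, 1 fell and 1 rose, with a median log2 fold change of -0.22. KCNJ12, which encodes Kir2.2, a strong inward rectifier of muscle (chromosome 17, 21279669 to 21323182), was counted 16 and 16 times with control shRNA and 60 and 61 times with USP47 shRNA. Both knockdown libraries were far above both control libraries, at 328% and 483% of the control mean CPM. The level went from 0.879 ± 0.0904 to 3.57 ± 0.965 CPM (SD, n = 2), a log2 fold change of 1.99 (SE 0.31, adjusted p = 0.00318), and KCNJ12 was called in every setting tried. KCNJ18, a near-identical copy of KCNJ12, has no entry of its own in the annotation used, so reads of either copy may be counted here, and the identity of this signal is uncertain.

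KCNJ4, which encodes Kir2.3 (chromosome 22, 38822332 to 38851205), was counted 88 and 118 times with control shRNA and 63 and 56 times with USP47 shRNA. The knockdown libraries held 54.1% and 69.7% of the control mean CPM. Its level went from 5.60 ± 0.584 to 3.47 ± 0.617 CPM (SD, n = 2), a log2 fold change of -0.71 (SE 0.21, adjusted p = 0.0441). The call was lost with DESeq2's Wald test (adjusted p = 0.192), without a filter (0.0503), and without control replicate 1 (0.127), control replicate 2 (0.308) or USP47 shRNA replicate 1 (0.0841). KCNJ4 thus moved in the opposite direction to KCNJ12 within the Kir2 family, while KCNJ14 of that family did not pass the test (log2 fold change 0.12, adjusted p = 0.673).

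KCNJ8, the most abundant Kir gene, was at 31.6 ± 1.04 CPM with control shRNA and 37.7 ± 1.25 CPM with USP47 shRNA (SD, n = 2), and its difference did not pass the test (log2 fold change 0.25, SE 0.13, adjusted p = 0.198). ABCC9, the sulfonylurea receptor that KCNJ8 pairs with, had 106 and 101 counts against 89 and 61 (log2 fold change -0.41, adjusted p = 0.171). KCNJ11, the other ATP-sensitive pore, had 14 and 18 counts against 7 and 5, and KCNJ10, a rectifier of glia and kidney, had 13 and 28 against 9 and 5. Both lay just outside the threshold, with log2 fold changes of -1.34 (adjusted p = 0.0535) and -1.47 (adjusted p = 0.0504).

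KCNJ5, which encodes Kir3.4, a G-protein-gated channel of heart and adrenal cortex (chromosome 11, 128761251 to 128791058), was too low to test, with 4 and 4 counts with control shRNA and 1 and 1 counts with USP47 shRNA. The 8 control counts and 2 knockdown counts gave a ratio of 0.26 with a 95% exact counting interval from 0.0269 to 1.3, so a difference was not detectable at this depth. On the opposite strand KCNJ5-AS1, a noncoding gene (128769460 to 128775939) that shares 0 exon bases with KCNJ5, was counted 62 and 79 times against 9 and 8. It fell from 3.84 ± 0.263 to 0.495 ± 0.0881 CPM (SD, n = 2), a log2 fold change of -2.97 (SE 0.30, adjusted p = 0.00052), a size near that of KCNT2. It reached the filter level in the control libraries alone. The coding genes on either side had almost no reads, KCNJ1 with 1 and 0 counts against 0 and 0, and TP53AIP1 with 0 and 2 against 3 and 3.

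Levels of an adrenal cortex list of 5 genes summed to 0.943 and 0.816 CPM with control shRNA and to 2.21 and 2.86 CPM with USP47 shRNA. Of these NR5A1 (5 and 3 counts against 19 and 13) and STAR (10 and 9 against 23 and 23) were called higher, both genes of steroid synthesis, while CYP11B2, the aldosterone synthase gene, had 1 count in all libraries together. The 6 neuronal markers summed to 34.5 and 30.5 CPM against 27.2 and 23 CPM, with STMN2 at 0 in all libraries. Of 4 tested only SNAP25, a gene of synaptic vesicle fusion, was called lower (21 and 19 counts against 6 and 2, adjusted p = 0.012). SYT1, the most abundant of the list, did not pass (29.4 and 25.6 CPM against 22 and 19.6, adjusted p = 0.0823). Neither did SYP or RBFOX3 (log2 fold changes 0.25 and -0.09). The 6 heart and skeletal muscle markers summed to between 3.34 and 3.95 CPM, TNNT2 having at most 3 counts, with no gene called of 2 tested. The 4 leukocyte markers, with PTPRC at between 8 and 12 counts, summed to between 5.23 and 7.72 CPM and the 3 endothelial markers to between 0.825 and 1.33 CPM, also with no gene called. STAR reached the filter level of 0.558 CPM in both knockdown libraries and in control replicate 1, but not in control replicate 2. NR5A1 reached that level in the knockdown libraries alone, and SNAP25 and EPCAM in the control libraries alone. NR5A1, SNAP25 and EPCAM too thus entered the test through the group where they were high. The part of these genes in the KCN values was not tested.

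Of the 15 K2P genes 7 were tested, 1 fell and 0 rose, with a median log2 fold change of -0.10. KCNK5, which encodes the acid-sensitive epithelial channel TASK-2 (chromosome 6, 39156747 to 39197251), was counted 186 and 248 times with control shRNA and 155 and 124 times with USP47 shRNA. The knockdown libraries held 63.1% and 73.2% of the control mean CPM, and no other called gene had a smaller fold change. The level went from 11.8 ± 1.18 to 8.05 ± 0.839 CPM (SD, n = 2), a log2 fold change of -0.56 (SE 0.17, adjusted p = 0.0461). The call was lost with DESeq2's Wald test (adjusted p = 0.154), DESeq2's size factors (0.0521), no filter (0.0507), and without control replicate 1 (0.171) or control replicate 2 (0.382). KCNK1 was at 41.4 ± 0.425 and 38.7 ± 3.8 CPM (SD, n = 2; log2 fold change -0.10, adjusted p = 0.64), and KCNK2, the mechanically gated channel TREK-1, had a log2 fold change of 0.05 (SE 0.18, adjusted p = 0.876). KCNK7 had 11 and 13 counts against 31 and 16 and did not pass (log2 fold change 1.01, adjusted p = 0.0721).

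**Figure D4:**
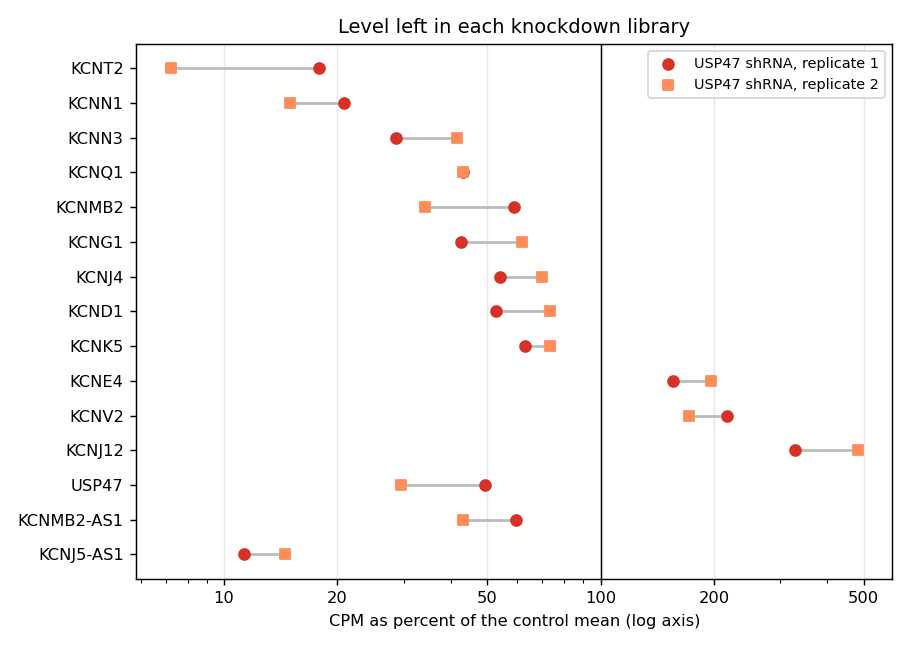
CPM in each USP47 shRNA library as a percent of the control mean (log axis, circles, replicate 1, squares, replicate 2) for the 12 called KCN genes, USP47 and the antisense genes KCNMB2-AS1 and KCNJ5-AS1, with a line at 100. KCNT2 stands at 17.9% and 7.22%, USP47 at 49.3% and 29.5%, and KCNJ12 at 328% and 483%.

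The depth of the USP47 knockdown differed between its libraries, with less USP47 RNA in replicate 2, and the called KCN genes did not all follow that order. Of the 9 genes that fell 4 were lower in replicate 2 than in replicate 1, and of the 3 that rose 2 were higher in replicate 2. KCNT2, KCNN1 and KCNMB2 were lower in replicate 2, KCNQ1 was nearly equal in both, and KCNN3, KCNG1, KCND1, KCNJ4 and KCNK5 were lower in replicate 1.

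Other genes that set potassium gradients were read from a list of 46, chosen with earlier results of these data known, so its counts are descriptions. Of the 29 tested, 1 rose and 8 fell, with a median log2 fold change of -0.30. Of all 21932 genes tested 1430 rose (6.52%) and 2097 fell (9.56%). Without control replicate 1 only 4 of the list were called lower, and without control replicate 2 only 5. Among the sodium pump genes 3 of 9 tested fell, and these were accessory rather than catalytic subunits. FXYD1, which encodes the pump regulator phospholemman, fell from 93 and 92 counts to 25 and 21 (5.09 ± 0.561 to 1.33 ± 0.185 CPM, SD, n = 2; log2 fold change -1.94, SE 0.24, adjusted p = 0.00116). ATP1B2, a beta subunit first known from glia, fell from 87 and 98 counts to 34 and 31 (log2 fold change -1.44, SE 0.23, adjusted p = 0.00358), and FXYD7 from 34 and 38 to 13 and 8 (log2 fold change -1.71, SE 0.32, adjusted p = 0.00701). FXYD7 reached the filter level in both control libraries and in USP47 shRNA replicate 1, but not in USP47 shRNA replicate 2.

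Chloride cotransporters couple potassium to cell volume and are switched by the WNK kinases and their partner STK39 (SPAK). Of 6 kinase genes tested 3 fell. STK39 fell from 348 and 423 counts to 235 and 183 (log2 fold change -0.81, SE 0.15, adjusted p = 0.00634) and WNK4 from 252 and 259 to 166 and 119 (log2 fold change -0.79, SE 0.16, adjusted p = 0.0099), and WNK3 fell too. Of 5 cotransporter genes tested SLC12A4 and SLC12A5, which encode the potassium-chloride exporters KCC1 and KCC2, fell. The one gene of the list that rose was HCN2, a pacemaker channel that passes sodium and potassium on hyperpolarization, with 558 and 675 counts against 1159 and 988 (33.7 ± 1.07 to 62.3 ± 9.27 CPM, SD, n = 2; log2 fold change 0.89, SE 0.14, adjusted p = 0.0037). None of the 2 channel partners, 3 organelle channels and 1 proton pump gene tested passed the test.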

How the data were processed

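RNA-Seq of 4 libraries of HGC-27 cells, 2 with control shRNA and 2 with USP47 shRNA, was analysed, with groups taken from the labels. The files that the authors deposited give raw read counts per gene, and FPKM and TPM values made from these. Per the labels and the methods, reads were trimmed at a quality score of 20, mapped to hg19 with STAR 2.7.5c, and cleared of duplicates and low-quality reads with SAMtools 1.9. Because no molecular identifiers were used, removing duplicates can lower abundant genes more than rare ones. The submitters' processing notes also name Picard 2.23.3 and featureCounts, with no role. The labels name a stranded kit (ABclonal) and the methods another kit (Vazyme), and the strand setting of the counting is not given in the sources used here. FPKM values were not used.

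Symbols came from GRCh37 with GENCODE release 44 lifted to it, in which 55665 of 63568 identifiers had one. Counts were tested with edgeR 4.0.16 in R 4.3.3 (TMM, filterByExpr, robust quasi-likelihood fit, both directions, Benjamini-Hochberg over 21932 genes). Standard errors were taken as the absolute log2 fold change over the root of F. A gene was called at an adjusted p under 0.05. Alternatives covered DESeq2 1.42.0, scaling, filters, a minimum log2 fold change of 1, the legacy fit, the replicate number as a block, and each library left out, where the lone library of a group is assumed to vary like the other group. The steps were tested on simulated data.

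The members and lists were chosen with earlier results of these data known. Values are given for USP47, KCNT2, KCNJ5, every called KCN gene, the 8 KCN genes with the highest mean control TPM, the highest of each class, genes overlapping a called gene, the coding neighbours of KCNT2 and KCNJ5, called genes of the potassium list (values for the 6 with the smallest p), and the first gene of each marker list. Other genes named were chosen after their values were seen. Some genes that this rule takes are not reported here.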

Additional observations from a re-analysis of the deposited data

How the results depend on the processing

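Against 12 called KCN genes (3 higher, 9 lower), DESeq2's Wald test called 4 (2 higher, 2 lower), no filter 7 (2 higher, 5 lower), and a minimum log2 fold change of 1 left 6 (1 higher, 5 lower). With 1 library left out the count ranged from 5 to 18 (1 to 5 higher, 3 to 13 lower). It was 5 without control replicate 1 and 7 without control replicate 2, of which 4 and 6 were among the 12, and 16 and 18 without USP47 shRNA replicates 1 and 2. DESeq2's size factors and library size alone each called 10, the filter of 10 counts in every library 11, and the legacy fit 12. Library size alone moved the median of all genes to -0.0722 and split all calls into 881 higher and 1919 lower, against 1430 and 2097. Of the 9 called genes of the potassium list 3 remained at a minimum log2 fold change of 1 (0 higher, 3 lower), and the Wald test called 5 lower. With 1 library left out that list had 6 to 13 calls (1 to 2 higher, 4 to 11 lower). Over all genes, 3527 calls became 2293 with the Wald test, 7422 with the replicate block, and 1230 to 7270 with 1 library left out. USP47 kept its direction and call in all 11 alternatives, with log2 fold changes from -1.75 to -1.01. No KCN gene with values here that was called changed direction. The replicate numbers are shared by the groups in name only (deviations of replicate 1 correlated at 0.213 over genes, from 2 pairs), and with them as a block 18 KCN genes were called (5 higher, 13 lower), all 12 among them. The share of KCN genes called was 37.5% with the block, beside 33.8% of all genes, and 12.5% at a minimum log2 fold change of 1, beside 5.54%. The causes were not tested. Low counts limit the result, since 47 of 95 KCN genes could not be tested and 2 libraries per group leave the spread of each gene resting on genes of similar abundance.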
